A study of Mus musculus with 24 samples.

Results

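Transcripts of 5 genes of the renin-angiotensin system, Agt, Ace, Agtr1a, Agtr2 and Atp6ap2, were followed in differentiating mouse fat cell precursors. The genes were taken by symbol from the 37310 genes of the deposited tables. They were chosen by function and selected on one measured value of these data, the level of Agtr2 in control cells of white fat, which was about 10-fold lower on day 8 than on day 4, and that comparison is therefore only described here. All 5 genes were measured in all 24 libraries and all 5 passed the filter on low values.

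The cells were the stromal vascular fraction, the mixed cells left when mature adipocytes are removed from fat, taken from C57BL/6 mice 6 weeks old. The white depot (WAT) was inguinal fat and the brown depot (BAT) was interscapular fat. The cells were cultured and driven towards adipocytes, first in induction medium with insulin, dexamethasone and IBMX to day 4 and then in medium with insulin and T3 to day 8. The treatment was EGCG (epigallocatechin gallate, a polyphenol found in tea leaves), the control was its solvent DMSO, and the labels give no dose. The groups were WAT day 4 control, WAT day 4 EGCG, WAT day 8 control, WAT day 8 EGCG and the same 4 in BAT, with 3 libraries in each of the 8 groups. The labels do not say whether the replicates are separate isolations of cells, so p-values measure only the spread between these libraries, which may be technical.

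The renin-angiotensin system is an extracellular peptide cascade. Angiotensinogen (Agt), a secreted protein, is cut by renin to angiotensin I, and angiotensin-converting enzyme (Ace) shortens this to angiotensin II, which acts through the type 1 receptor (Agtr1a, and in rodents its near-copy Agtr1b) and the type 2 receptor (Agtr2). Fat tissue is a known source of angiotensinogen outside the liver. The protein of Atp6ap2 is known both as the prorenin receptor and as an accessory protein of the vacuolar proton pump (V-ATPase), which acidifies lysosomes and other compartments.

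The part of the Agt transcript that encodes the active peptide is shown first, because it is the peptide that Ace forms and Agtr1a and Agtr2 bind. It lies in exon 2 of 5, on the minus strand at chr8:127088341-127088388 of build NCBIM37 (mm9), and the 24 bases in capitals (chr8:127088356-127088379) encode angiotensin II.
Agt: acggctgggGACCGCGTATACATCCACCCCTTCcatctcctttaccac

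Agtr1a and Agtr1b are similar copies, so reads from stretches that both share could be given to the wrong one. Their coding sequences, 1080 bases each, differed at 99 positions (90.8% identity), and the longest run without a difference was 66 bases. Of all windows of 50 bases, 3.2% held no difference. Coding bases 964 to 1023, the stretch of 60 bases with the most differences, are shown with the 13 that differ in capitals.
Agtr1a: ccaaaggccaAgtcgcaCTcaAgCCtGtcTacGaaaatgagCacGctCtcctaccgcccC
Agtr1b: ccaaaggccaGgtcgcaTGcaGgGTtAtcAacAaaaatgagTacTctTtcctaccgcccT
Agtr1b had 0 to 24 reads in a library, against 43 to 1238 for Agtr1a. It did not pass the filter, and reads from stretches without a difference cannot be assigned to either copy.

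Depth, as reads assigned to genes, was 39452696 to 52893848 for replicates 1 and 2. For replicate 3, which the authors deposited in a table of its own, it was 16392420 to 41675643. The values are FPKM, that is, reads scaled by the length of the gene and by the depth of the library, so levels can be compared between genes. A floor of 3 reads came to 0.0116 to 0.0968 FPKM over the members and libraries. A pair of libraries stood apart. In WAT day 8 EGCG replicate 3, 5 genes took 61.0% of the reads, against 3.64% to 10.5% in the others, which lowered the FPKM of every other gene there. In WAT day 8 control replicate 1, Agt and Ace were lower and Agtr2 and Agtr1a higher than in replicates 2 and 3 of that group. The tests below used replicates 1 and 2 of all groups (limma on log2(FPKM + 1), Benjamini-Hochberg adjusted p), and replicate 3, after median-ratio scaling, gave the direction only.

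The cells carried the markers of differentiating adipocytes. The summed FPKM of 10 mature adipocyte markers (Adipoq, Pparg, Fabp4 and others) was 2459 in WAT and 6002 in BAT controls on day 4, and 5573 and 10902 on day 8. With EGCG it was 444 in WAT and 1345 in BAT on day 4, and 173 and 360 on day 8. All 10 markers were lower with EGCG in each of the 4 comparisons. Of all 14095 tested genes, 19.3% passed the test as lower in WAT and 20.6% in BAT on day 4, and 18.9% and 26.1% on day 8. In day 4 controls of each depot, 9 of the 10 markers had a mean of at least 1 FPKM. In bulk RNA, fewer cells of a type and less RNA per cell cannot be told apart, and the part of this shift in the members' changes was not tested.

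Agt, the precursor gene (ENSMUSG00000031980.9, protein-coding, minus strand, chr8:127080434-127093606), was abundant in all controls and fell with EGCG in both depots on both days. WAT day 4 control libraries had 120.4, 104 and 142 FPKM in replicates 1, 2 and 3, and those with EGCG had 18.02, 16.3 and 17.3. On day 8 the WAT controls had 145, 438 and 414 FPKM and the EGCG libraries 3.498, 4.75 and 2.04, the last being 4.48 after scaling. No EGCG library of either day reached a control library.

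In BAT, Agt had 179, 196 and 229 FPKM in day 4 controls and 46.3, 50.9 and 52.8 with EGCG. On day 8 the BAT controls had 403, 387 and 432 FPKM and the EGCG libraries 26.9, 21.5 and 27.7. The groups were again fully separate, and the control and EGCG levels moved apart between the days.

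The mean Agt level was 6.52-fold lower with EGCG in WAT on day 4 (log2 change -2.63 ± 0.355 SE, adjusted p 7.68e-05) and 3.86-fold lower in BAT (-1.93 ± 0.355, adjusted p 0.00081). On day 8 it was 70.6-fold lower in WAT (-5.64 ± 0.355, adjusted p 9.32e-08) and 16.3-fold lower in BAT (-3.98 ± 0.355, adjusted p 8.19e-07). Among the 5 members, Agt had the largest log2 change on day 8 in both depots. The common SE reflects WAT day 8 control replicate 1: without that library the SE in WAT on day 4 was 0.127, and the day 8 change in WAT was -6.43 ± 0.155 (adjusted p 1.99e-10).

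In BAT the direction of Agt over time was opposite in control and EGCG cells. In the controls it rose 2.1-fold from day 4 to day 8 (log2 change 1.07 ± 0.355, adjusted p 0.0184), a call that was lost without BAT day 4 control replicate 1 (adjusted p 0.0774) and without either BAT day 8 control library (0.0698 and 0.0573). With EGCG it fell 4.16-fold in WAT (-1.84 ± 0.355, adjusted p 0.000844) and 2.01-fold in BAT (-0.98 ± 0.355, adjusted p 0.0327), the latter call being lost when any single BAT EGCG library was left out (adjusted p 0.057 to 0.153). The test of the difference itself, the EGCG effect on day 8 less that on day 4 in BAT, gave -2.05 ± 0.503 (adjusted p 0.00454).

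**Figure D1:**
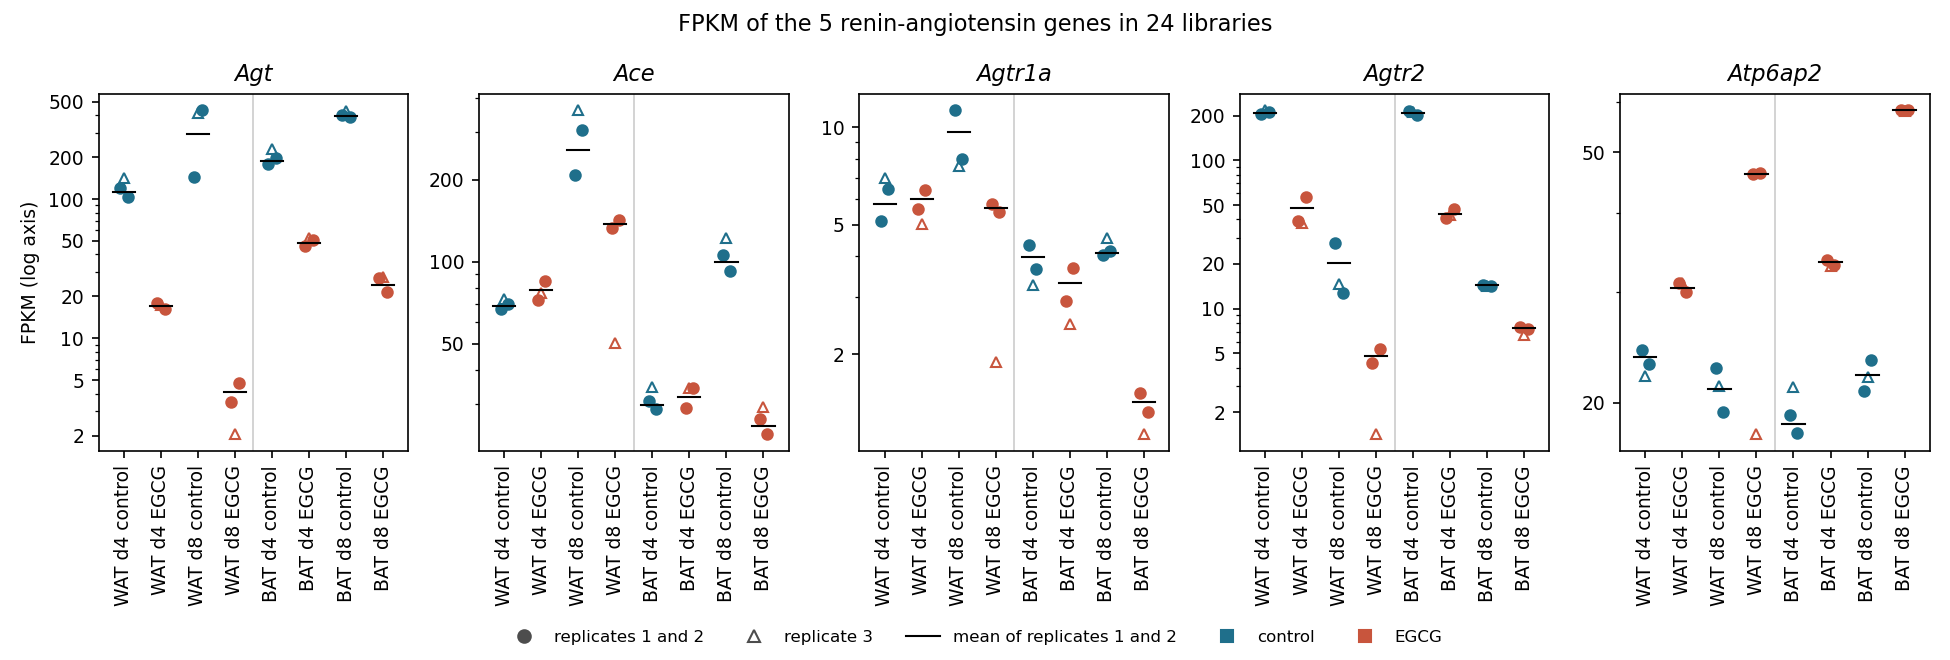
FPKM (log axis, one scale per gene) of Agt, Ace, Agtr1a, Agtr2 and Atp6ap2 in 24 libraries of 8 groups, as deposited: filled circles are replicates 1 and 2, open triangles replicate 3, bars the mean of replicates 1 and 2, with controls in blue and EGCG in red. Agt and Agtr2 of EGCG cells lie below their controls in each depot and day, Atp6ap2 of EGCG cells lies above them except in WAT day 8 EGCG replicate 3 (17.8 FPKM), and Agt of WAT day 8 control replicate 1 (145 FPKM) lies apart from its group.

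Ace, the converting enzyme (ENSMUSG00000020681.8, protein-coding, plus strand, chr11:105829259-105851278), did not pass the test with EGCG on day 4 and fell with it on day 8. WAT day 4 libraries had 67.3, 70.2 and 73.1 FPKM in controls and 72.5, 85.2 and 76.8 with EGCG, and BAT day 4 libraries had 30.7, 28.8 and 34.8 in controls and 29.1, 34.4 and 34.5 with EGCG. On day 8 the WAT controls had 209, 306 and 362 FPKM and the EGCG libraries 133, 142 and 50.4, the last being 111 after scaling. The BAT day 8 controls had 106, 92.5 and 122 FPKM, and the EGCG libraries had 26.5, 23.2 and 29.3. Control and EGCG libraries thus overlapped on day 4 and did not overlap on day 8, in both depots.

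The log2 change of Ace with EGCG was 0.19 ± 0.151 (adjusted p 0.311) in WAT and 0.09 ± 0.151 (adjusted p 0.661) in BAT on day 4. On day 8 it was -0.87 ± 0.151 in WAT, 1.87-fold lower (adjusted p 0.000318), and -1.96 ± 0.151 in BAT, 4.0-fold lower (adjusted p 2.25e-07). The effects on the 2 days differed in BAT (-2.05 ± 0.213, adjusted p 1.07e-05). Ace rose 3.34-fold from day 4 to day 8 in BAT controls (1.71 ± 0.151, adjusted p 1.01e-06) and 1.74-fold in WAT EGCG cells (0.80 ± 0.151, adjusted p 0.000719), while in BAT EGCG cells its change was -0.34 ± 0.151 (adjusted p 0.0726). That last value passed the test without WAT day 8 control replicate 1 (adjusted p 0.0126).

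The exons of Ace overlap those of the antisense gene Gm11651 on the minus strand, and the strand setting of the counting is not given in the sources used here, so reads from the pair cannot be told apart where they overlap. RefSeq lists 2 start sites for Ace, the inner one known for the testis form of the enzyme, and the values per gene do not separate them. The 6 testis markers summed to at most 0.216 FPKM in any group.

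The type 1 receptor gene Agtr1a (ENSMUSG00000049115.8, protein-coding, plus strand, chr13:30428310-30474736) was the lowest of the 5 members per kilobase in the controls, with 3.27 to 11.3 FPKM. WAT day 4 controls had 5.14, 6.45 and 6.99 FPKM and EGCG libraries 5.59, 6.41 and 5.04, and BAT day 4 controls had 4.33, 3.66 and 3.27 and EGCG libraries 2.91, 3.70 and 2.48. These groups overlapped in both depots. On day 8 the WAT controls had 11.3, 7.98 and 7.60 FPKM and the EGCG libraries 5.80, 5.48 and 1.89 (4.14 after scaling), and the BAT controls had 4.04, 4.16 and 4.55 against 1.52, 1.32 and 1.13 with EGCG. Here no EGCG library reached a control.

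On day 4 the log2 change of Agtr1a with EGCG was 0.05 ± 0.147 in WAT (adjusted p 0.808), turning to -0.06 after median-ratio scaling, and -0.22 ± 0.147 in BAT (adjusted p 0.249). On day 8 it was 1.71-fold lower in WAT (-0.66 ± 0.147, adjusted p 0.00188) and 2.88-fold lower in BAT (-1.07 ± 0.147, adjusted p 3.48e-05). The change in WAT was -0.44 (adjusted p 0.0203) without control replicate 1. The effects on the 2 days differed in BAT (-0.86 ± 0.208, adjusted p 0.00435). Over time Agtr1a fell 2.32-fold in BAT EGCG cells (-0.82 ± 0.147, adjusted p 0.000495), and its changes were 0.03 ± 0.147 in BAT controls (adjusted p 0.853) and -0.07 ± 0.147 in WAT EGCG cells (adjusted p 0.687).

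The type 2 receptor gene Agtr2 (ENSMUSG00000068122.3, protein-coding, plus strand, chrX:21061670-21066290) had its highest levels in the controls of day 4, where its mean was 208 FPKM in WAT, beside 112 for Agt, and 209.7 in BAT, beside 188 for Agt. WAT day 4 controls had 204, 212 and 219.6 FPKM and BAT day 4 controls 216, 203 and 213. On day 8 WAT controls had 27.7, 12.7 and 14.6 FPKM, the values that chose the gene, which is 10.3-fold lower in the mean of replicates 1 and 2 (log2 change -3.40, with -3.93 without control replicate 1 and -2.86 without replicate 2). BAT day 8 controls, which the choice did not use, had 14.5, 14.1 and 14.2 FPKM, and there Agtr2 fell 14.6-fold (-3.78 ± 0.262, adjusted p 1.25e-07).

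With EGCG, Agtr2 was lower in each depot on each day. On day 4 it had 39.2, 57.0 and 37.6 FPKM in WAT EGCG libraries, 4.33-fold below the controls (log2 change -2.12 ± 0.262, adjusted p 3.97e-05), and 40.6, 46.8 and 42.7 in BAT EGCG libraries, 4.8-fold below (-2.24 ± 0.262, adjusted p 2.51e-05). On day 8 it had 4.28, 5.31 and 1.42 FPKM in WAT EGCG libraries (the last 3.11 after scaling), 4.22-fold below the controls (-1.78 ± 0.262, adjusted p 9.26e-05), and 7.47, 7.27 and 6.69 in BAT EGCG libraries, 1.94-fold below (-0.87 ± 0.262, adjusted p 0.0101). EGCG and control libraries did not overlap in any of the 4 pairs. The WAT comparisons share their control libraries with the comparison that chose the gene, whereas those in BAT do not.

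Agtr2 also fell over time in EGCG cells, 10.0-fold in WAT (log2 change -3.06 ± 0.262, adjusted p 1.41e-06) and 5.93-fold in BAT (-2.41 ± 0.262, adjusted p 9.98e-06). In BAT the EGCG effect was smaller on day 8 than on day 4, the difference being 1.37 ± 0.371 (adjusted p 0.00823). This was the reverse of Agt, Ace, Agtr1a and Atp6ap2, whose EGCG effects in BAT were larger on day 8.

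Atp6ap2, the prorenin receptor and V-ATPase accessory gene (ENSMUSG00000031007.2, protein-coding, plus strand, chrX:12164927-12194175), was the member that rose with EGCG. WAT day 4 libraries had 24.3, 22.995 and 22.0 FPKM in controls and 31.0, 29.9 and 31.0 with EGCG, and BAT day 4 libraries 19.1, 17.9 and 21.2 in controls and 33.7, 33.1 and 33.0 with EGCG. On day 8 WAT controls had 22.7, 19.3 and 21.3 FPKM, and EGCG libraries had 46.2, 46.3 and 17.8, the last being 39.1 after scaling. BAT day 8 controls had 20.9, 23.4 and 22.0 FPKM and EGCG libraries 58.4, 58.3 and 58.1. As deposited, WAT day 8 EGCG replicate 3 was the only EGCG library that did not lie above its controls.

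The rise of Atp6ap2 with EGCG was 1.29-fold in WAT (log2 change 0.35 ± 0.070, adjusted p 0.00119) and 1.81-fold in BAT (0.82 ± 0.070, adjusted p 1.82e-06) on day 4. On day 8 it was 2.2-fold in WAT (1.11 ± 0.070, adjusted p 9.32e-08) and 2.64-fold in BAT (1.36 ± 0.070, adjusted p 6.67e-09). The effect was larger in BAT than in WAT on day 4 (difference 0.47 ± 0.099, adjusted p 0.00497) and larger on day 8 than on day 4 in BAT (0.54 ± 0.099, adjusted p 0.000638). Over time Atp6ap2 rose 1.2-fold in BAT controls (0.24 ± 0.070, adjusted p 0.00824), 1.52-fold in WAT EGCG cells (0.59 ± 0.070, adjusted p 2.03e-05) and 1.75-fold in BAT EGCG cells (0.79 ± 0.070, adjusted p 1.87e-06). The call in BAT controls was lost without BAT day 4 control replicate 2 (adjusted p 0.0653) and without BAT day 8 control replicate 2 (0.0896).

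**Figure D2:**
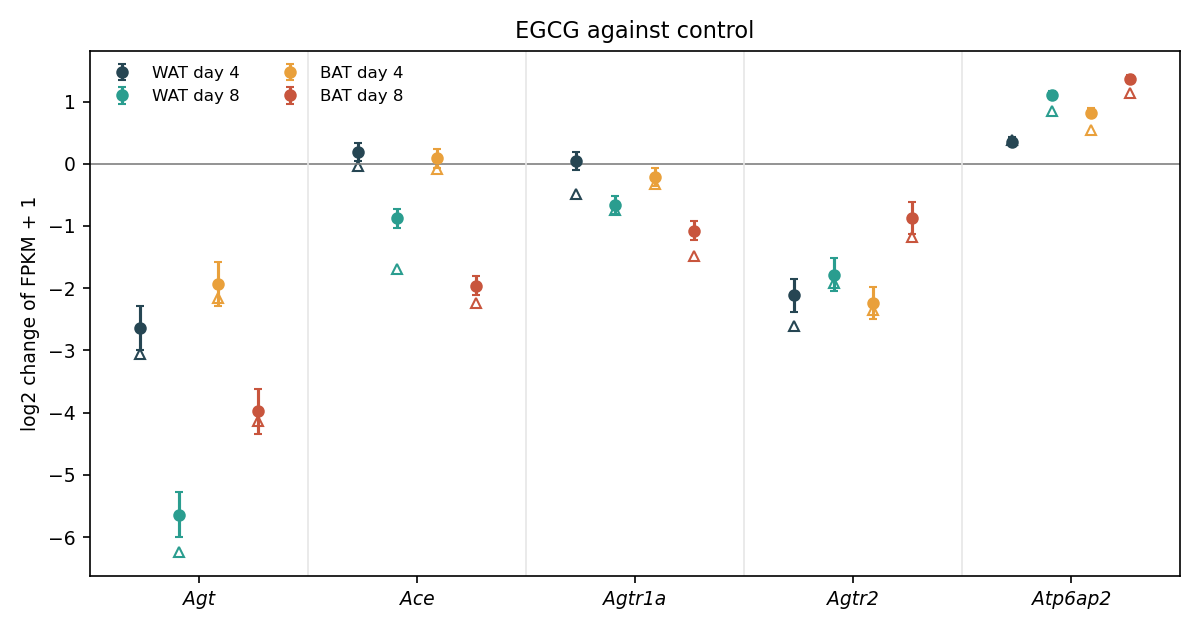
Log2 change of FPKM + 1 with EGCG against control for the 5 members in WAT and BAT on day 4 and day 8: circles are the fit of replicates 1 and 2 with bars of 1 SE, open triangles the change in replicate 3 after median-ratio scaling. Agt and Agtr2 lie below 0 and Atp6ap2 above 0 in all 4 comparisons, and Ace and Agtr1a lie clearly below 0 on day 8.

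Counted over the members, 3 of 5 passed the test for EGCG in WAT on day 4, where 53.7% of all 14095 tested genes did. Of these, 1 was higher and 2 were lower, against 34.4% and 19.3% of all genes. In WAT on day 8 all 5 passed (63.6% of all genes), 1 higher (44.7%) and 4 lower (18.9%). In BAT 3 passed on day 4 (48.5%), 1 higher (27.9%) and 2 lower (20.6%), and 5 on day 8 (72.6%), 1 higher (46.5%) and 4 lower (26.1%). Since so many genes were called, the sizes and directions describe the members better than the counts. All 16 calls had the same direction in replicate 3. They include Agtr2 in WAT on both days, where its control values are those on which the choice rested. Those calls are therefore not independent of the choice.

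Between day 4 and day 8, 4 of 5 members passed in BAT controls (69.2% of all genes), with Agt, Ace and Atp6ap2 higher (28.7%) and Agtr2 lower (40.4%). Of all calls in that comparison 41.5% were higher on day 8, which became 55.3% after median-ratio scaling, with a shift of 0.136 in the median of all genes, and the 4 members kept their calls. In WAT EGCG cells 4 passed (59.5%), with Ace and Atp6ap2 higher (31.8%) and Agt and Agtr2 lower (27.7%). In BAT EGCG cells 4 passed (58.0%), with Atp6ap2 higher (29.7%) and Agt, Agtr1a and Agtr2 lower (28.2%). In WAT controls, the comparison used for the choice, 61.0% of all genes passed, 27.7% higher and 33.2% lower, and no member is counted there.

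**Figure D3:**
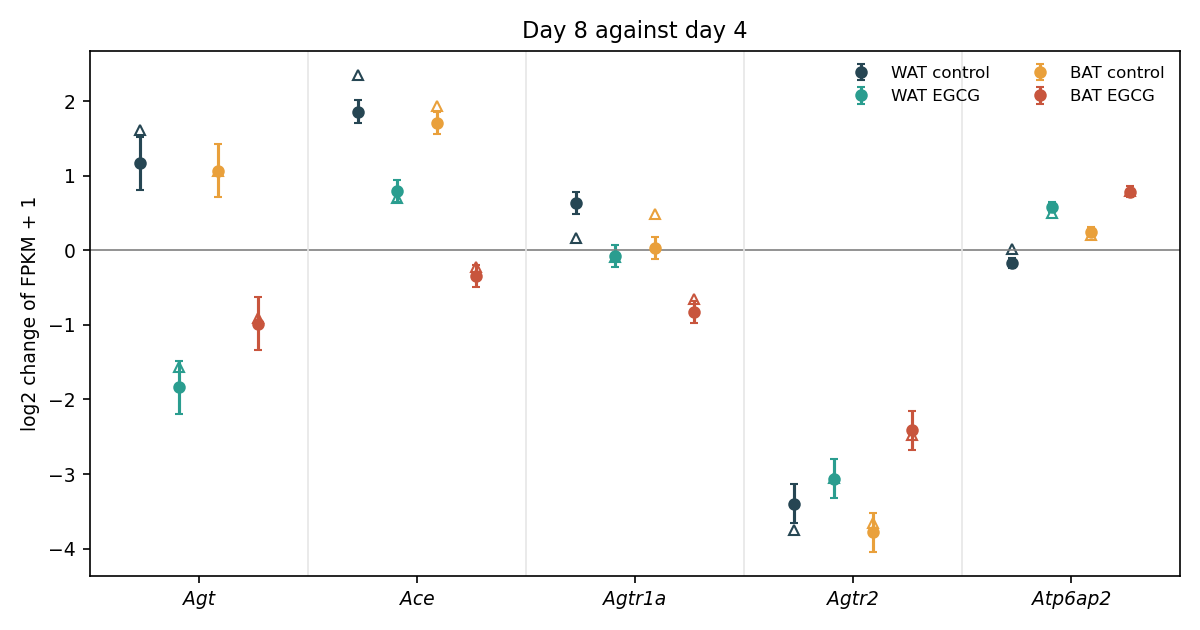
Log2 change of FPKM + 1 from day 4 to day 8 for the 5 members in WAT and BAT control and EGCG cells: circles are the fit of replicates 1 and 2 with bars of 1 SE, open triangles the change in replicate 3 after median-ratio scaling. Agtr2 lies between -2.41 and -3.78 in all 4 series, and Agt lies above 0 in controls and below 0 with EGCG. The WAT control series includes the comparison that chose Agtr2 and carries no test.

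In WAT controls, where no test is given, the values over time were as follows. Agt had a log2 change of 1.17, which was 1.96 without day 8 control replicate 1 and 0.37 without replicate 2. Ace had 1.86, Agtr1a 0.64 and Atp6ap2 -0.17. Replicate 3 gave 1.61 for Agt, 2.36 for Ace, 0.16 for Agtr1a and 0.02 for Atp6ap2, so that the sign for Atp6ap2 differed from that of replicates 1 and 2.

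The depots were compared within each day and treatment, which asks whether brown and white precursors differ in these genes. Ace and Agtr1a were lower in BAT than in WAT in all 4 comparisons. Ace was 2.31-fold lower in BAT in day 4 controls (log2 change -1.18 ± 0.151, adjusted p 5.84e-05) and 2.59-fold lower in day 8 controls (-1.34 ± 0.151, adjusted p 1.72e-05). With EGCG it was 2.48-fold lower on day 4 (-1.29 ± 0.151, adjusted p 3.32e-05) and 5.53-fold lower on day 8 (-2.42 ± 0.151, adjusted p 5.19e-07). No BAT library reached a WAT library of the same day and treatment.

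Agtr1a was 1.45-fold lower in BAT in day 4 controls (log2 change -0.44 ± 0.147, adjusted p 0.0242), a call lost without replicate 2 of either group (adjusted p 0.183 and 0.147). It was 2.35-fold lower in day 8 controls (-1.04 ± 0.147, adjusted p 0.0001), 1.82-fold lower with EGCG on day 4 (-0.70 ± 0.147, adjusted p 0.00208) and 3.96-fold lower with EGCG on day 8 (-1.45 ± 0.147, adjusted p 2.02e-05).

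Agt was higher in BAT than in WAT in EGCG cells, 2.83-fold on day 4 (log2 change 1.45 ± 0.355, adjusted p 0.00555) and 5.87-fold on day 8 (2.30 ± 0.355, adjusted p 0.000409). In controls the depots differed by 0.74 ± 0.355 on day 4 (adjusted p 0.0954), which passed the test without WAT day 8 control replicate 1 (adjusted p 0.000514). On day 8 the difference was 0.65 ± 0.355 (adjusted p 0.148), and it was -0.15 without WAT day 8 control replicate 1 (adjusted p 0.464) and 1.44 without replicate 2 (adjusted p 2.1e-05), so the value rests on which of those libraries is kept. Replicate 3 gave 0.00 (-0.00111) there.

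Agtr2 did not pass the test between the depots in any of the 4 comparisons, of which those in controls use the WAT control values on which the choice of the gene rested. Its log2 difference, BAT less WAT, was 0.01 ± 0.262 in day 4 controls (adjusted p 0.979; -0.16 after median-ratio scaling), -0.37 ± 0.262 in day 8 controls (0.256), -0.11 ± 0.262 with EGCG on day 4 (0.751) and 0.54 ± 0.262 with EGCG on day 8 (0.131). Without WAT day 8 control replicate 1 the day 8 control value was 0.16 (adjusted p 0.473) and the EGCG value on day 8 passed the test (adjusted p 0.0106), and without replicate 2 the day 8 control value was -0.91 (adjusted p 0.00115). Atp6ap2 was 1.28-fold lower in BAT in day 4 controls (-0.34 ± 0.070, adjusted p 0.00167) and 1.26-fold higher with EGCG on day 8 (0.33 ± 0.070, adjusted p 0.00315), and its differences were 0.07 ± 0.070 in day 8 controls (adjusted p 0.405; 0.18 and 0.0358 without WAT day 8 control replicate 1) and 0.13 ± 0.070 with EGCG on day 4 (adjusted p 0.151).

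Of the members, 3 of 5 passed between depots in day 4 controls (55.8% of all genes), all lower in BAT (14.4%; 41.4% of all genes were higher). In day 8 controls 2 passed (53.6%), both lower (22.0%; 31.6% higher). With EGCG 3 passed on day 4 (48.7%), 1 higher (32.9%) and 2 lower (15.8%), and 4 on day 8 (38.4%), 2 higher (24.4%) and 2 lower (14.0%). In day 4 controls, 74.3% of the calls were higher in BAT, which became 50.6% after median-ratio scaling, and with EGCG on day 4 67.7% became 54.8%.

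The EGCG effect itself differed between depots on day 8 for 2 of 5 members (39.2% of all genes). It was weaker in BAT for Agt (difference 1.66 ± 0.503, adjusted p 0.0217; 19.4% of all genes above 0) and stronger in BAT for Ace (-1.08 ± 0.213, adjusted p 0.00196; 19.7% below 0). The difference for Agt was 2.45 without WAT day 8 control replicate 1 and 0.86 without replicate 2. On day 4 the effect differed for 1 of 5 members, Atp6ap2 (28.1% of all genes, 12% above 0 and 16.1% below). Between days in BAT it differed for 5 of 5 members (55.4%), 2 above 0 (34.7%) and 3 below (20.6%). After median-ratio scaling the share of all calls above 0 went from 42.7% to 60.4% for the depot difference on day 4. It went from 62.8% to 46.9% for the difference between days in BAT. The depot differences of Agtr2 (adjusted p 0.831 on day 4 and 0.073 on day 8) use the WAT control values on which its choice rested.

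Ordered by mean level of replicates 1 and 2, Agt went from BAT day 8 control (395 FPKM) through WAT day 8 control (291), BAT day 4 control (188) and WAT day 4 control (112) to BAT day 4 EGCG (48.6), BAT day 8 EGCG (24.2), WAT day 4 EGCG (17.2) and WAT day 8 EGCG (4.12). WAT day 8 control overlapped with the groups on both sides of it, and no other neighbours did. For Agtr2 the order was set by day and treatment, with the depots of each overlapping except on day 8 with EGCG (7.37 in BAT and 4.79 in WAT). Atp6ap2 was ordered with the 4 EGCG groups first (58.4 to 30.5) and the 4 controls after them (23.6 to 18.5). In these orders "overlap" refers to the ranges of replicates 1 and 2.

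The genes whose profile over the 16 libraries of replicates 1 and 2 was most like each member were sought among 9737 protein-coding genes, by Pearson's r of log2(FPKM + 1). The libraries of a group share their treatment, so r describes group levels and carries no test. For Agt they were Cd36, the fatty acid transporter (r 0.99), Cdo1, cysteine dioxygenase (0.985), and the mitochondrial gene mt-Nd2 (0.976). For Ace they were Ccdc152 (0.943), Tnfsf13b (0.933) and Htra1 (0.933), and the first of these gave -0.129 over the 8 libraries of replicate 3. For Agtr1a they were Ggt5 (0.964), Adamts2 (0.948) and Plac8 (0.94). For Agtr2 they were Ncoa4 (0.968), Ssr2 (0.962) and Rpl18 (0.96), and for Atp6ap2 Itgav, the integrin alpha V chain (0.991), Snx30 (0.984) and Amdhd2 (0.981). The other 14 gave 0.912 to 0.996 in replicate 3. Between the members, r was 0.819 for Agtr1a with Ace, -0.816 for Agt with Atp6ap2 and 0.408 for Agt with Agtr2.

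The bases before the start sites of Agt and Agtr2 are shown because both genes fell with EGCG in all 4 comparisons. They are the 250 bases upstream in RefSeq's annotation (build GRCm38.p6), at chr8:124569707-124569956 on the minus strand for Agt and chrX:21484374-21484623 on the plus strand for Agtr2. The motifs searched, on both strands, were the TATA box (TATAAA), the antioxidant response element (TGACNNNGC), the E-box (CACGTG) and a site for C/EBP factors (TTGCNNCAA), and matches are in capitals.
Agt: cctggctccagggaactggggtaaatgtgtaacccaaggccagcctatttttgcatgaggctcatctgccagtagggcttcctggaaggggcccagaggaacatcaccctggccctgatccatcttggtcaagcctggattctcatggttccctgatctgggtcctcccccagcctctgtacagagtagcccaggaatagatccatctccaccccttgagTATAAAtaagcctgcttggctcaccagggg
Agtr2: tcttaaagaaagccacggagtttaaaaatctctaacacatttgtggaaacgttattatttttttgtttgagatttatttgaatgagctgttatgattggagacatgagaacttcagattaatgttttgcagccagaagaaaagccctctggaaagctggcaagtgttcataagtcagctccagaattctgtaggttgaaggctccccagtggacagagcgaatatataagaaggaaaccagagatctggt
Agt held TATAAA from base -30 to base -25, counted from the start site. Agtr2 held none of the 4 motifs as spelled in this window. Other spellings of the TATA box were not searched, so the letters atatataag near the end of the Agtr2 window were not marked. Among 32851 promoters, 12.4% held the TATA box, 10.2% the antioxidant response element, 6.02% the E-box and 1.74% the C/EBP site. A match describes letters only, and the base composition differed, with 55.6% G and C in Agt and 38.4% in Agtr2.

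The other genes of the system were taken from a list of 21, of which 13 passed the filter. Among these, Cpa3 passed only through BAT day 8 controls (mean 1.08 FPKM in replicates 1 and 2, but 0 in replicate 3). Its lower mean with EGCG there, 0.17 FPKM, was thus favoured by the filter. With EGCG, 4 rose and 5 fell in WAT on day 4 (list median -0.10, all genes 0.09), 4 and 6 on day 8 (-0.07, all genes 0.17), 2 and 7 in BAT on day 4 (-0.34, all genes 0.03), and 5 and 6 on day 8 (-0.04, all genes 0.17). Of all genes, 34.4% rose and 19.3% fell in WAT on day 4, 44.7% and 18.9% on day 8, 27.9% and 20.6% in BAT on day 4, and 46.5% and 26.1% on day 8. After median-ratio scaling, 1 of the list rose and 5 fell in WAT on day 4, 3 and 7 on day 8, 2 and 7 in BAT on day 4, and 3 and 6 on day 8. The added fall in WAT on day 8 was Agtrap (-0.27, adjusted p 0.000905). This scaling lowered the median of all genes by 0.166 in WAT and 0.158 in BAT on day 8.

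Renin itself, Ren1, which makes the first cut of angiotensinogen, was low and found mainly on day 4. WAT day 4 controls had 4.41, 4.89 and 4.87 FPKM and EGCG libraries 1.18, 1.04 and 0.938, a 4.19-fold fall (log2 change -1.42 ± 0.103, adjusted p 5.45e-07). BAT day 4 controls had 1.48, 1.16 and 1.57 FPKM and EGCG libraries 2, 10 and 2 reads (-1.10 ± 0.103, adjusted p 3.96e-06). On day 8 WAT controls had 17, 20 and 10 reads and BAT controls 2, 2 and 4. With EGCG on day 8 there were 0, 0 and 1 reads in WAT and 0 in all 3 BAT libraries, where 0 allows up to 3 reads or 0.0356 to 0.109 FPKM. In controls of day 4, Ren1 was 3.52-fold lower in BAT than in WAT day 4 controls (-1.29 ± 0.103, adjusted p 2.18e-06).

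The peptidases that trim or degrade angiotensins went both ways. Anpep, aminopeptidase N, fell 5.89-fold with EGCG in WAT on day 4 (20.8 to 3.53 FPKM, log2 change -2.27 ± 0.1004, adjusted p 1.04e-08), and Enpep, the aminopeptidase that starts to degrade angiotensin II, fell 3.42-fold in WAT on day 8 (9.001 to 2.63 FPKM) and 4.15-fold in BAT on day 4 (10.3 to 2.48 FPKM). Mme, neprilysin, fell in all 4 comparisons, by 2.11-fold in WAT and 6.0-fold in BAT on day 8. Ctsa, the lysosomal carboxypeptidase cathepsin A, rose in all 4, with 1.85-fold in WAT on day 8 (74.3 to 137 FPKM). Prcp and Prep, which cut after proline, rose on day 8 in both depots, Prcp by 2.52-fold in BAT (5.91 to 14.9 FPKM). Mtus1, whose product is known to interact with the type 2 receptor, fell in all 4, by 3.9-fold in BAT on day 4 (13.5 to 3.46 FPKM).

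**Figure D4:**
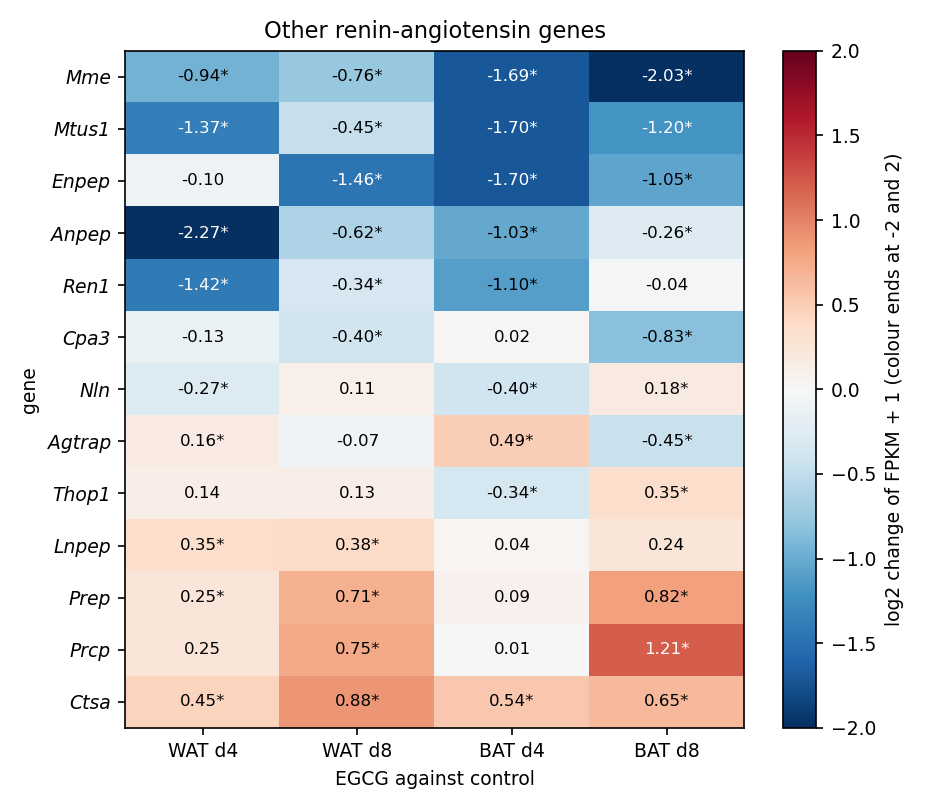
Log2 change of FPKM + 1 with EGCG against control for the 13 other renin-angiotensin genes that passed the filter (rows, ordered by mean change) in WAT and BAT on day 4 and day 8 (columns), where red is higher and blue lower with EGCG and a star marks an adjusted p under 0.05. Mme and Mtus1 are lower and Ctsa higher in all 4 columns.

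The genes of the list below the filter included Agtr1b, Mas1, Mrgprd, Ctsg, Cma1, Cma2 and Klk1. Among these the highest group mean was 0.55 FPKM, for Cma2 in WAT day 4 EGCG cells. Mas1, the receptor for angiotensin-(1-7), had a group mean of at most 0.28 FPKM. Agtrap, which encodes a protein that binds the type 1 receptor, rose 1.43-fold with EGCG in BAT on day 4 (12.6 to 18.01 FPKM) and fell 1.39-fold on day 8 (19.2 to 13.8 FPKM).

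The V-ATPase subunits were set beside Atp6ap2. Of 24 measured, 19 passed the filter. Among these, Atp6v0d2 passed through EGCG groups (mean 1.04 FPKM in WAT and 2.19 in BAT on day 4, and 1.39 in WAT on day 8). Its control means were 0.21 to 0.80 FPKM, so its higher levels with EGCG were favoured by the filter. With EGCG, 16 rose and 2 fell in WAT on day 8 (median log2 change 0.77, all genes 0.17, of which 44.7% rose and 18.9% fell) and 15 rose and 1 fell in BAT on day 8 (0.74, all genes 0.17, of which 46.5% rose and 26.1% fell), and after median-ratio scaling 13 rose and 3 fell in WAT and 14 and 2 in BAT. On day 4, 11 rose and 1 fell in WAT (0.18, all genes 0.09, 34.4% up and 19.3% down), which became 7 and 4 after scaling. In BAT on day 4, 13 rose and 1 fell (0.27, all genes 0.03, 27.9% up and 20.6% down). Atp6ap1, the other accessory subunit, rose most in BAT on day 8, from 71.6 to 181 FPKM (log2 change 1.33), next to 1.36 for Atp6ap2. Atp6v1a, a catalytic subunit, rose from 32.1 to 63.3 FPKM in WAT and from 40.3 to 73.2 in BAT on day 8, while Tcirg1 fell in WAT (29.2 to 24.7 FPKM) and rose in BAT (23.8 to 27.5), the latter not after scaling (adjusted p 0.958). Atp6v1e1 in BAT on day 8 was 0.02 (adjusted p 0.765) and turned to -0.18 after scaling (adjusted p 0.00646).

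**Figure D5:**
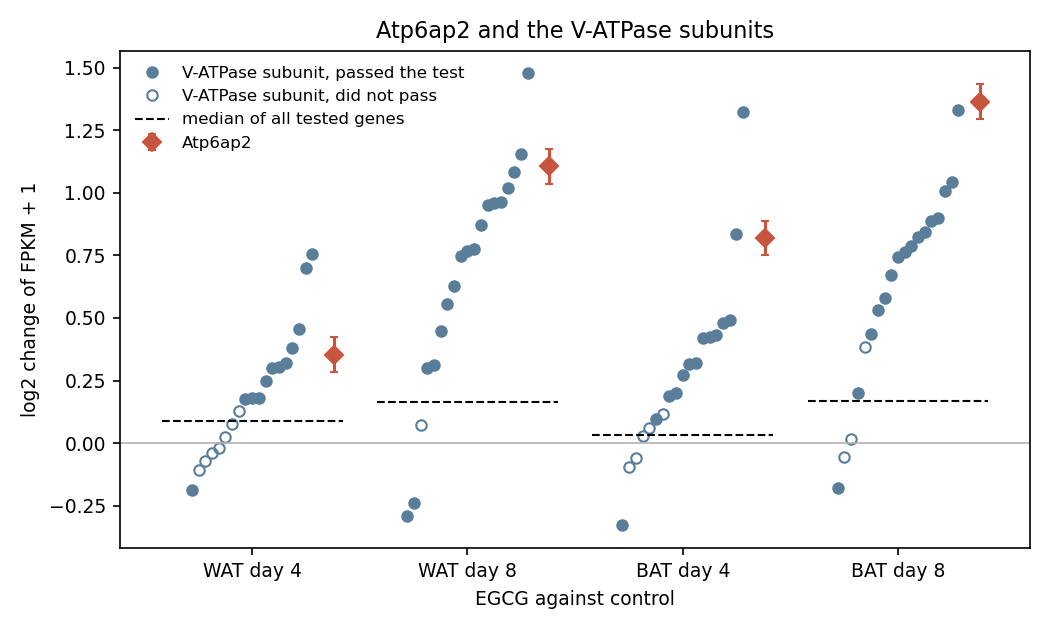
Log2 change of FPKM + 1 with EGCG against control for the 19 V-ATPase subunits that passed the filter (blue circles in rank order, filled where the adjusted p was under 0.05) and for Atp6ap2 (red diamond with 1 SE) in WAT and BAT on day 4 and day 8, with the median of all tested genes as a dashed line. On day 8 Atp6ap2 (1.11 and 1.36) lies near the upper end of the subunits, whose medians are 0.77 and 0.74.

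Markers of other cell types also moved with EGCG. The summed level of 6 endothelial markers was 12.5 to 22.8 FPKM in the 4 control groups and 30.3 to 37.8 in the 4 EGCG groups, with Cdh5 at 8.27 FPKM in WAT day 8 controls and 11.4 with EGCG. Of the 6, 5 passed as higher in WAT and 6 in BAT on day 4, and 4 in WAT and 6 in BAT on day 8, with none lower. Of all genes, 34.4% were higher and 19.3% lower in WAT on day 4, and 27.9% and 20.6% in BAT. On day 8 the shares were 44.7% and 18.9% in WAT and 46.5% and 26.1% in BAT. The same shares apply to the marker counts in the paragraphs that follow. After median-ratio scaling, 4 were higher and 1 lower in WAT on day 8, and 3 were higher in BAT.

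The 6 smooth muscle and pericyte markers went both ways. On day 4, 2 were higher and 4 lower with EGCG in WAT (summed level 177 FPKM in controls and 92.8 with EGCG), and 4 were higher and 0 lower in BAT (113 and 758). On day 8, 2 were higher and 2 lower in WAT (384 and 649, median log2 change -0.16), and 3 were higher and 3 lower in BAT (429 and 1396, median -0.0081). The sums were set by Acta2 and Tagln, which in BAT on day 8 had 229 and 173 FPKM in controls and 798 and 579 with EGCG, while Myh11 had 9.67 and 2.78, Des 7.12 and 3.47 and Rgs5 3.03 and 1.603.

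Of the 8 precursor markers, 7 passed the filter. On day 4, 2 were higher and 3 lower with EGCG in WAT (summed level 433 and 632 FPKM, median log2 change -0.02), where Ly6a had 101 FPKM in controls and 309 with EGCG and Dlk1 had 51.9 and 6.11. In BAT on day 4, 2 were higher and 1 lower (494 and 659). On day 8, 1 was higher and 5 lower in WAT (1409 and 974), and 1 was higher and 4 lower in BAT (616 and 624, median -0.31), where Pdgfrb had 62.0 FPKM in controls and 219 with EGCG.

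Of the 6 macrophage markers, 5 passed the filter. On day 4, 4 were higher in WAT (68.9 and 180 FPKM) and 3 in BAT (156 and 361), with none lower, and on day 8, 5 were lower in WAT (101 and 56.7) and 4 in BAT (102 and 57.5), with none higher. Over the groups, mast cell markers summed to 1.04 to 3.32 FPKM, skeletal muscle markers to 8.60 to 44.3, mesothelial markers to 0.722 to 23.3 and placenta markers to at most 0.0817. Agtr1a and Ace are also known in vessel wall and endothelial cells, and the part of such cells in the members' values was not tested.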

How the data were processed

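RNA of 24 libraries was sequenced, with 2 depots, 2 days and 2 treatments in 8 groups taken from the sample labels. The submitters' processing notes name FastQC 0.11.9, HISAT2 2.2.0, HTSeq 0.11 and build mm9. The authors deposited FPKM values in 2 tables, with 16 libraries of replicates 1 and 2 and 8 of replicate 3. The longest transcript of each gene in GENCODE vM1 was used as its length. In both tables each library was scaled by its own reads on genes. Whether counting used the strand is not given in the sources used here. FPKM times length gave whole reads for 100% of values (tolerance 0.01). Intervals are not given, and the floor of 3 reads covers counting error only.

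Genes with at least 1 FPKM in at least 2 of the 16 libraries (14095) were tested with limma 3.58.1 in R 4.3.3 on log2(FPKM + 1), a scale that understates changes of low genes, with 1 mean per group, one spread shared by the groups (residual degrees of freedom 8, or 11.4 once moderated), two-sided tests and Benjamini-Hochberg adjustment within each comparison at 0.05. Folds are ratios of mean FPKM. Replicate 3 was divided by its median-ratio factor. The members and lists were chosen with earlier results of these data known, and all their genes may be named. All 113 list entries were matched, 1 through an older symbol. Genes with like profiles are the 3 with the highest r among tested protein-coding genes reaching a mean of 5 FPKM in a group. Differences of maturation that contain the WAT controls were not tested. No protein sequences were used here. One gene of the lists is not reported here.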

Additional observations from a re-analysis of the deposited data

Results flagged for a closer look

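The effect of EGCG differed between days or depots, by the test of the difference itself (limma interaction contrasts), in 8 of 15 tests over the 5 members. Of all genes, 28.1% passed for the depots on day 4, 39.2% for the depots on day 8 and 55.4% for the days in BAT. The count alone thus does not set the members apart. The depot tests of Agtr2 among the 15 use the WAT control values on which its choice rested. In BAT the effect on day 8 less that on day 4 was -2.05 for Agt, -2.05 for Ace, -0.86 for Agtr1a, 1.37 for Agtr2 and 0.54 for Atp6ap2. These 5 calls held with any single library left out. The effect in BAT less that in WAT was 0.47 for Atp6ap2 on day 4, and 1.66 for Agt and -1.08 for Ace on day 8. The value for Agt was 2.45 without WAT day 8 control replicate 1 and 0.86 without replicate 2, and its call was lost in other settings given below. The same differences in replicate 3, with no test, were -1.97, -2.16, -1.14, 1.19 and 0.59 between days and 0.17, 2.10 and -0.54 between depots, in the order given.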

How the results depend on the processing

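Members' calls for EGCG against control kept their direction and their side of the threshold, 16 of 16, under every alternative run. Over all comparisons 1014 of 1095 member values under the alternatives stayed on the same side in the same direction, 20 lost and 31 gained a call, and 30 changed sign.

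The number of members called for the depot difference of the EGCG effect on day 8 (2) was 1 without a filter on low values and with only the groups compared, and 5 with limma-voom on recovered reads of 24 or 23 libraries, where the share of all genes called also rose, from 39.2% to 47.4% and 45.2%. Leaving out single libraries gave 1 to 4, with 1 without WAT or BAT day 8 EGCG replicate 1 and 4 without WAT day 8 control replicate 2. For the depot difference on day 4 (1) it was 2 with only the groups compared, and 1 to 2 with single libraries left out, 2 being without WAT day 8 control replicate 1. Leaving out single libraries gave 2 to 4 for BAT controls over time (4), with 2 without BAT day 8 control replicate 2, and 2 to 4 for the depots in day 8 controls (2), with 4 without WAT day 8 control replicate 2. The adjusted p of Agt for the depot difference on day 8 was 0.0506 with limma-voom on replicates 1 and 2 and 0.0607 without a filter, and ranged from 8.89e-06 to 0.0834. The cause was not tested. The depot counts include Agtr2, whose tests there use the WAT control values on which its choice rested.

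Of the 30 values that changed sign, none was of a called change. For Agtr1a with EGCG in WAT on day 4 they were -0.058 under median-ratio scaling, -0.060 under quantile normalization and -0.050, -0.13 and -0.13 with limma-voom on 16, 24 and 23 libraries, and leaving out single libraries gave -0.092 to 0.19. For Agtr2 between depots in day 4 controls they were -0.16 under median-ratio scaling, -0.15 under quantile normalization and -0.16, -0.17 and -0.17 with limma-voom, and -0.034 to 0.055 with single libraries left out. For Atp6ap2 between depots in day 8 controls they were -0.0059 under quantile normalization and -0.0036 and -0.0050 with limma-voom on 24 and 23 libraries, and -0.037 to 0.18 with single libraries left out. For Agtr2 in the depot difference on day 4 they were 0.042 and 0.043 with limma-voom on 24 and 23 libraries, and -0.39 to 0.14 with single libraries left out. The other ranges with single libraries left out were -0.027 to 0.20 for Ace with EGCG in BAT on day 4, -0.064 to 0.13 for Agtr1a in BAT controls and -0.16 to 0.010 in WAT EGCG cells over time, -0.15 to 1.44 for Agt and -0.91 to 0.16 for Agtr2 between depots in day 8 controls, -0.38 to 0.15 for Agtr2 between depots with EGCG on day 4, and -0.22 to 0.014 for Ace in the depot difference on day 4.

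The replicate numbers showed no effect common to the groups. Deviations of same-numbered libraries from their group means correlated at -0.17 to 0.159 over 28 pairs of groups (median -0.0139). The check cannot show whether libraries of some groups were paired, and the labels do not say. With the replicate number as a block, the members called for EGCG were 3, 5, 3 and 5 as before, and no call of a member changed. The limma-voom fits, and the fits of other groups without WAT day 8 control replicate 1, were chosen after seeing the data. The planned edgeR and DESeq2 fits were not run, because the files hold FPKM. Median-ratio scaling moved the share of calls that were higher with EGCG from 64.1% to 47.0% in WAT day 4, from 70.3% to 50.6% in WAT day 8 and from 64.0% to 51.1% in BAT day 8. With 2 tested libraries a group, small changes such as those of Agtr1a on day 4 were not resolved, and 3 reads were the floor for Ren1 and Agtr1b.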
